A study of Rattus rattus with 6 samples.

Results

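Tgfb1 (ENSRNOG00000020652), Ccn2 (ENSRNOG00000015036), Lox (ENSRNOG00000014426), Mmp2 (ENSRNOG00000016695) and Timp1 (ENSRNOG00000010208), 5 genes that act in the remodelling of the cardiac matrix, were followed in the ageing rat heart. They were chosen by gene identifier for their known roles, and earlier results of these data were known at that time. They are 5 of the 23976 genes in the table. RNA came from the left ventricle of male wild type Wistar-Kyoto rats, an inbred strain, with 3 young adult animals of 3 months and 3 old adult animals of 24 months. No animal received a treatment other than natural ageing, and each animal gave 1 library. The libraries are called YH2, YH4 and YH5 (young) and OH1, OH2 and OH5 (old), as in the table's column names. A left ventricle sample is a mixture of cell types, so a change in the number of cells of a type and a change in the RNA per cell cannot be told apart.

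In the heart, transforming growth factor beta 1, the product of Tgfb1, is a secreted ligand held in the matrix in a latent form, and its receptors signal through Smad proteins to raise the transcription of matrix genes in fibroblasts. Connective tissue growth factor (Ccn2) is a matricellular protein commonly used as a marker of that response. Lysyl oxidase (Lox) starts the crosslinking of collagen and elastin, which makes a matrix stiffer and harder to degrade. The gelatinase Mmp2 cleaves matrix proteins, and Timp1, a tissue inhibitor of metalloproteinases, binds and blocks such enzymes.

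Levels were in TPM, transcript abundances corrected for length and scaled to the same sum in each library, so levels of different genes can be set side by side. The 15 most abundant genes, those averaging 1000 TPM or more, took up most of each library. All other genes together held 6.39% to 10.6% of TPM in the young libraries and 5.08% to 6.05% in the old, and YH2, at 6.39%, was nearer to the old libraries than to YH4 and YH5, at 10.6% and 10.5%. A value can therefore be lower in old ventricle only because those 15 genes took more of a fixed sum. For this reason each member was also compared after the 15 genes had been left out and the rest had been brought to 1000000 per library, here called rescaled TPM. Each log2 fold change compares old with young on the scale log2(value + 1), which understates the change of a gene near 1 TPM, and a gene was called at an adjusted limma p below 0.05. All 5 members passed the filter on low values.

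Of the 5 members, Timp1 had the highest fold change on both scales. After rescaling it was the 1 member called, higher in old ventricle by a log2 fold change of 1.36, while 2.66% of all genes tested were called higher. That call held in 1 of 6 fits with a library left out. On the deposited scale 1 of 5 members, Tgfb1, was called lower, where 46.8% of all genes were. Ccn2, Lox and Mmp2 were not called on either scale, and their young and old libraries overlapped on both. On the deposited scale 0 of 5 members were called higher by limma, where 0.884% of all genes were. Timp1 was higher there at an unadjusted limma p below 0.05, which 5979 of 9502 genes reached in either direction. After rescaling 0 of 5 were called lower, where 3.42% of all genes were. At an unadjusted limma p below 0.05, 0 of 5 were lower, and 2234 of 9487 genes reached that in either direction. The shares by direction at unadjusted p were not computed. The median log2 fold change of all genes tested was -0.53 on the deposited scale and -0.04 after rescaling.

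**Figure D1:**
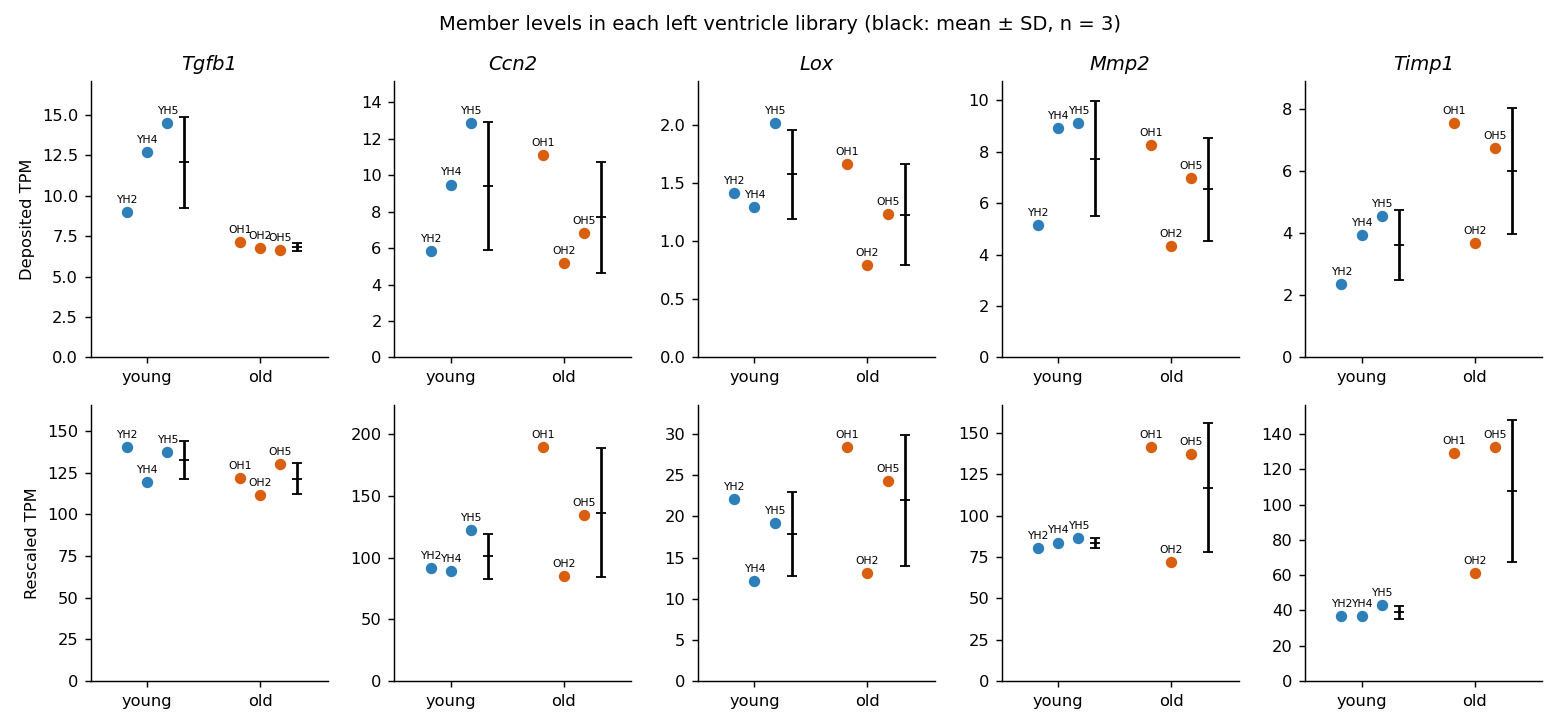
Levels of the 5 genes in each library, as deposited TPM (top row) and rescaled TPM (bottom row), with young libraries in blue, old in orange and the mean ± SD of 3 libraries in black. After rescaling the 3 old Timp1 values, 61.1 to 133 TPM, lie above the 3 young values, 36.9 to 43.3 TPM, and OH2 is the lowest old library for all 5 genes.

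Tgfb1, the ligand, stood at 8.98, 12.7 and 14.5 TPM in YH2, YH4 and YH5 and at 7.11, 6.76 and 6.63 TPM in OH1, OH2 and OH5. Every old library was below every young one. Young ventricle averaged 12.1 ± 2.81 TPM and old ventricle 6.83 ± 0.249 TPM (SD, n = 3), 1.77-fold higher in young (exact two-sided permutation p = 0.1, the smallest that 3 against 3 libraries can give). The log2 fold change was -0.71 ± 0.28 (SE), with a limma adjusted p of 0.036. Non-overlap in this direction was common, found in 54.2% of the genes tested, and 21.55% of genes had a lower fold change than Tgfb1. The call was lost when any library other than YH2 was left out, with limma adjusted p values of 0.120 to 0.172, and also without a filter on low values (0.0998) and when every gene above 0 in some library was tested (0.0663).

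After rescaling, Tgfb1 was at 141, 119 and 138 TPM in YH2, YH4 and YH5 and at 122, 112 and 130 TPM in OH1, OH2 and OH5. The 2 ages then overlapped. The log2 fold change was -0.13 ± 0.11, with a 95% interval of -0.39 to 0.14 and a limma adjusted p of 0.556. Of all genes tested, 18.4% were lower in old without overlap on this scale, and 0 of the 5 members were. The deposited fall of Tgfb1 was thus not called relative to the genes outside the 15 most abundant.

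Ccn2, a matricellular protein downstream of transforming growth factor beta, was at 5.85, 9.49 and 12.9 TPM in YH2, YH4 and YH5 and at 11.1, 5.17 and 6.83 TPM in OH1, OH2 and OH5. The ages overlapped, and within each age the highest library held more than the lowest by 2.20-fold in young and 2.15-fold in old. The deposited log2 fold change was -0.26 ± 0.29 (limma adjusted p 0.405). After rescaling the values were 91.6, 89.2 and 122 TPM in young and 190, 85.5 and 134 TPM in old. The sign of the mean difference turned, with a log2 fold change of 0.37 ± 0.27, a 95% interval of -0.24 to 0.99 and a limma adjusted p of 0.446. OH1 was the highest of the 6 libraries and OH2 the lowest, so the old libraries spanned the young ones. With 1 library left out, the Ccn2 value ran from 0.10 (without OH1) to 0.67 (without OH2) after rescaling and from -0.53 (without YH2) to -0.02 (without YH5) as deposited, and it was not called in any of these fits.

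Lox, the crosslinking enzyme, was the least abundant member in every library. It stood at 1.42, 1.30 and 2.02 TPM in YH2, YH4 and YH5 and at 1.66, 0.794 and 1.23 TPM in OH1, OH2 and OH5. The deposited log2 fold change was -0.22 ± 0.19 (limma adjusted p 0.282). After rescaling Lox was at 22.2, 12.2 and 19.2 TPM in young and 28.5, 13.1 and 24.2 TPM in old. The log2 fold change on that scale was 0.26 ± 0.31, with a 95% interval of -0.45 to 0.97 and a limma adjusted p of 0.660. With 1 library left out, it ran from 0.02 (without YH4) to 0.57 (without OH2) after rescaling and from -0.35 (without OH1) to -0.07 (without OH2) as deposited, and Lox was not called in any of these fits.

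Mmp2, the gelatinase, was at 5.14, 8.92 and 9.10 TPM in YH2, YH4 and YH5 and at 8.27, 4.35 and 6.98 TPM in OH1, OH2 and OH5. The deposited log2 fold change was -0.21 ± 0.28 (limma adjusted p 0.474). After rescaling the 3 young libraries were close together, at 80.4, 83.8 and 86.5 TPM, and the old ones were not, at 142, 71.9 and 137 TPM. OH1 and OH5 lay above all young libraries and OH2 below them. The rescaled log2 fold change was 0.42 ± 0.24, with a 95% interval of -0.13 to 0.97 and a limma adjusted p of 0.336. Without OH2 it was 0.73 and passed the threshold (limma adjusted p 0.0224), in a fit where 196 of 9487 genes were called higher. That was the 1 of 14 alternative fits on this scale in which Mmp2 passed.

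Timp1, the inhibitor, was at 2.36, 3.94 and 4.56 TPM in YH2, YH4 and YH5 and at 7.54, 3.70 and 6.76 TPM in OH1, OH2 and OH5. OH1 and OH5 were above every young library, whereas OH2 lay between the young values. Young ventricle averaged 3.62 ± 1.14 TPM and old ventricle 6.0 ± 2.03 TPM (SD, n = 3). The deposited log2 fold change was 0.59 ± 0.26, with a limma adjusted p of 0.0523, above the threshold. The exact permutation p of the group means was 0.3, and Timp1 passed in 0 of 11 alternative fits on this scale. Of the genes tested, 99.18% had a lower fold change on this scale.

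After rescaling, Timp1 was at 36.9, 37.0 and 43.3 TPM in YH2, YH4 and YH5 and at 129, 61.1 and 133 TPM in OH1, OH2 and OH5. The ages no longer overlapped, with OH2 the nearest old library to the young ones. The mean rose from 39.1 ± 3.67 to 108 ± 40.4 TPM (SD, n = 3), a 2.76-fold difference (exact permutation p = 0.1, again the lowest this test allows). The log2 fold change was 1.36 ± 0.27, with a 95% interval of 0.73 to 1.99 and a limma adjusted p of 0.030. In this direction 11.3% of the genes tested did not overlap.

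The Timp1 call did not survive the loss of most single libraries. With 1 library left out, its rescaled log2 fold change stayed between 1.17 (without OH5) and 1.72 (without OH2). It passed the threshold only without OH2 (limma adjusted p 0.00304), and the limma adjusted p was 0.0678 without YH2, 0.0808 without YH4, 0.0758 without YH5, 0.106 without OH1 and 0.0930 without OH5. Fewer libraries enter these fits. The call was also lost without a filter on low values (limma adjusted p 0.197) and when every gene above 0 in some library was tested (limma adjusted p 0.0709). Median-ratio scaling and quantile normalization kept it, at log2 fold changes of 1.38 and 1.39.

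**Figure D2:**
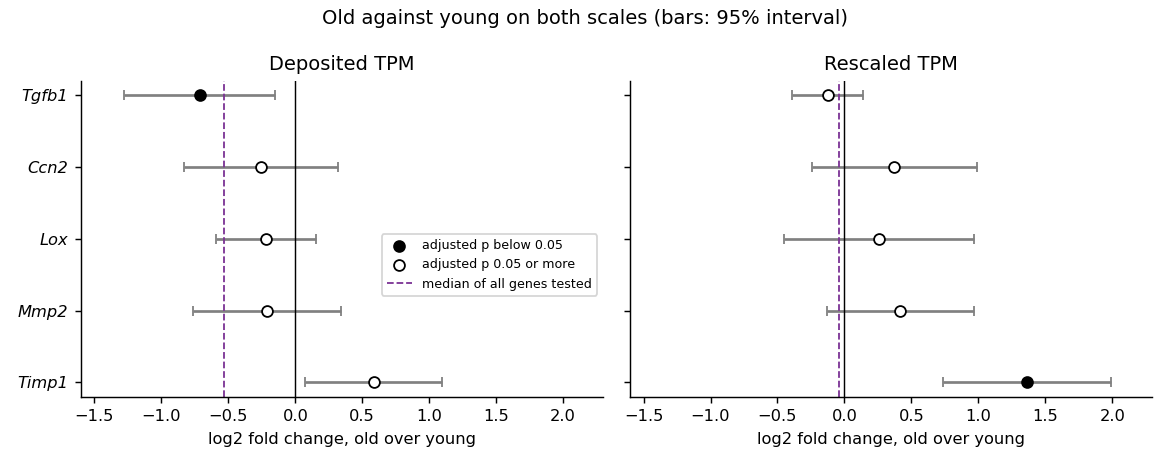
Log2 fold change of each gene, old over young, on the deposited scale (left) and after rescaling (right), with 95% intervals and the median of all genes tested as a dashed line. Tgfb1 lies near the median on both scales (-0.71 against -0.53, and -0.13 against -0.04), and Timp1 lies above it on both (0.59 and 1.36).

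**Figure D3:**
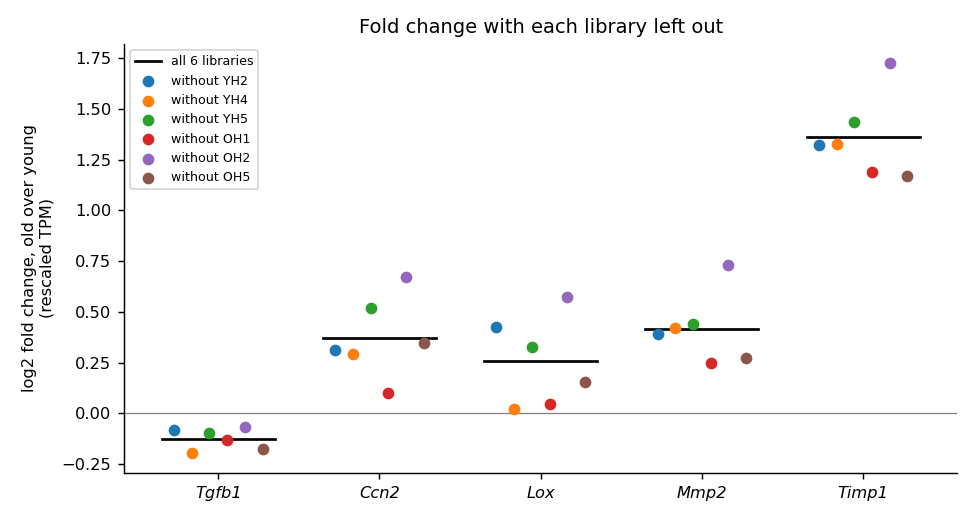
Rescaled log2 fold change of each gene with all 6 libraries (black line) and with 1 library left out (points). Leaving out OH2 raised the value of every gene, to 0.73 for Mmp2 and 1.72 for Timp1.

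The position of a gene among the 9502 tested genes of its own library does not depend on how that library is scaled. Timp1 ranked 5945, 5730 and 5345 from the top in YH2, YH4 and YH5 and 1611, 3815 and 1458 in OH1, OH2 and OH5. Put as the percent of tested genes with a lower TPM, Timp1 moved from 40.3 ± 3.20 in young to 75.9 ± 13.9 in old (SD, n = 3), without overlap between the ages (exact permutation p = 0.1). The share of all tested genes whose positions did not overlap was not computed. Tgfb1 kept a high place, at 83.3 ± 1.70 in young and 82.0 ± 2.05 in old, with overlap (exact permutation p = 0.6).

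For Mmp2 the position was 68.2 to 71.3 in the young libraries, and 85.1, 66.2 and 85.3 in OH1, OH2 and OH5. Ccn2 lay at 72.7 to 81.3 in young and at 90.3, 72.0 and 84.8 in OH1, OH2 and OH5. Lox stayed low, at 2.66 to 16.8 in young and 2.83 to 25.9 in old. In OH1 and OH5 these 3 genes held a higher place than in any young library, and in OH2 they did not. This split was made after the values had been seen, and the share of all tested genes with this pattern was not computed.

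**Figure D4:**
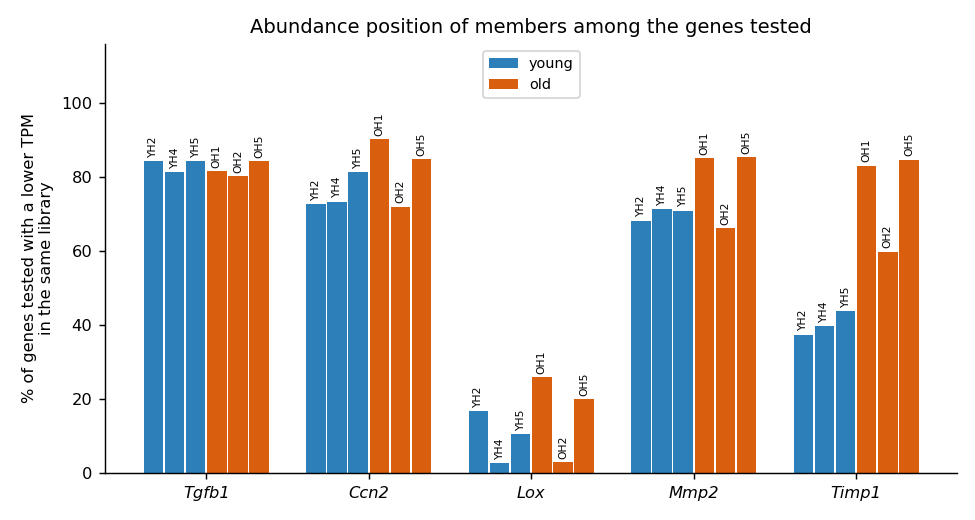
Percent of the 9502 tested genes with a lower TPM than each gene in the same library, with young libraries in blue and old in orange. Timp1 goes from 37.4 to 43.8 in the young libraries to 59.9 to 84.7 in the old ones, and Tgfb1 stays between 80.2 and 84.3 in all 6.

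The order of the 5 genes was the same in the 3 young libraries, with Tgfb1 at the top, then Ccn2, Mmp2, Timp1 and Lox. The step from Tgfb1 to Ccn2 was 0.40 ± 0.22 log2 units (SD, n = 3) and that from Ccn2 to Mmp2 0.26 ± 0.21, so the upper 3 were close together. Mmp2 was 1.10 ± 0.09 log2 units above Timp1, and Timp1 was 1.17 ± 0.43 above Lox. In old ventricle the upper 4 genes had drawn together. Ccn2, Tgfb1 and Mmp2 differed by less than their spread, at 0.10 ± 0.52 log2 units from Ccn2 to Tgfb1 and 0.11 ± 0.46 from Tgfb1 to Mmp2. Mmp2 was above Timp1 by 0.14 ± 0.09, in all 3 old libraries, and Lox was 2.29 ± 0.15 below Timp1. OH2 kept the young order. In OH1 and OH5, Tgfb1 was in the fourth place, below Timp1. In OH5 the upper 4 genes lay close together, between 6.63 and 6.98 TPM.

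Ratios of 2 members within a library are also free of the choice of scale, and they test whether the members changed by different amounts. All 10 pairs were compared. In 4 pairs the ages did not overlap, and these were the 4 pairs with Timp1. Each gave an exact two-sided permutation p of 0.1 and 0.25 after Benjamini-Hochberg adjustment over the 10 pairs, and no pair can pass 0.05 by this test with 3 against 3 libraries. A ratio shows unequal change, not which of the genes changed.

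The ratio of Timp1 to Mmp2, inhibitor to protease, was 0.458, 0.442 and 0.501 in YH2, YH4 and YH5 and 0.912, 0.851 and 0.969 in OH1, OH2 and OH5. It was higher in old by 0.96 log2 units, or 1.95-fold. OH2, which had low values of both genes, was close to the other old libraries on this ratio. Timp1 over Tgfb1 had the largest difference of the 10 pairs, 1.51 log2 units, with 0.262, 0.310 and 0.315 in young and 1.06, 0.547 and 1.02 in OH1, OH2 and OH5. OH2 was here nearer to the young libraries than the other old ones were.

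Timp1 over Lox was 1.66, 3.04 and 2.26 in young and 4.54, 4.66 and 5.48 in OH1, OH2 and OH5, a difference of 1.11 log2 units. Timp1 over Ccn2 was 0.402, 0.415 and 0.354 in young and 0.680, 0.716 and 0.990 in old, a difference of 1.01 log2 units. This pattern was not limited to the members. The ratio of Timp1 to another tested gene was higher in old without overlap for 88.0% of the 9495 genes above 0 in all libraries.

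Between the other members the ratios moved less. Mmp2, Ccn2 and Lox over Tgfb1 were higher in old by 0.55, 0.50 and 0.40 log2 units, with overlap in each case and exact permutation p values of 0.2, 0.2 and 0.4. Mmp2 over Tgfb1 was 0.572, 0.701 and 0.629 in the young libraries and 1.16, 0.643 and 1.05 in OH1, OH2 and OH5. Without OH2, 7 of the 10 pairs did not overlap. Fewer libraries make non-overlap easier to reach, and the share over all gene pairs was not computed. Among Mmp2, Ccn2 and Lox themselves the ratios differed between ages by 0.05 to 0.15 log2 units, with exact permutation p values of 0.7 to 0.8. Leaving out YH2 (Ccn2 over Lox, Mmp2 over Lox) or YH5 or OH5 (Mmp2 over Ccn2) turned their sign.

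**Figure D5:**
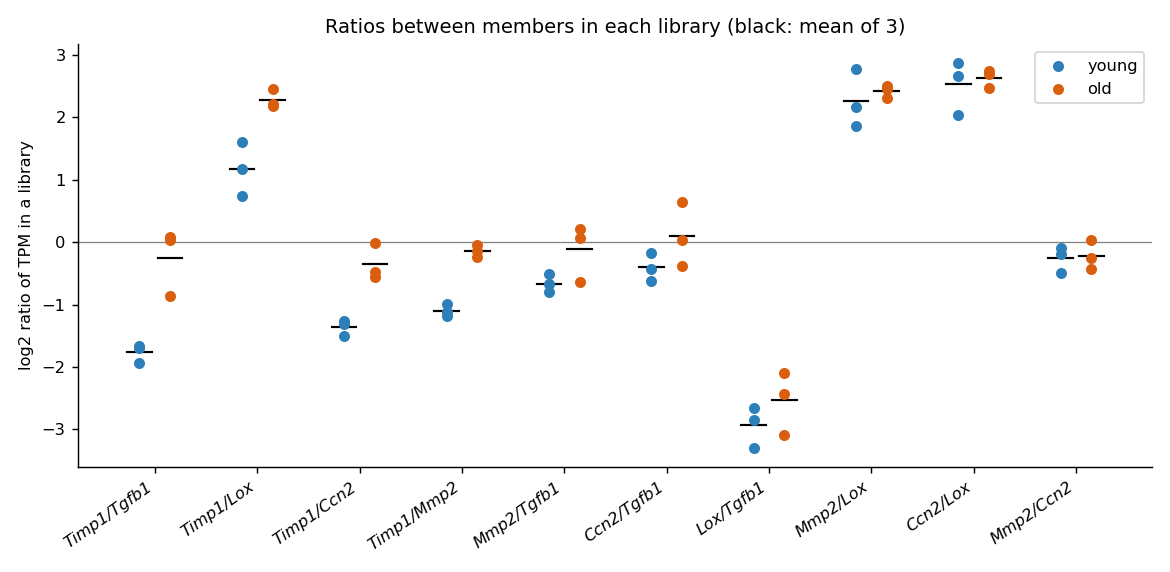
Log2 ratio of TPM of 2 genes within a library for all 10 pairs, with 3 young (blue) and 3 old (orange) libraries and their means in black, ordered by the difference between ages. The 4 pairs with Timp1 are the ones where the ages do not overlap, with differences of 1.51, 1.11, 1.01 and 0.96 log2 units.

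How far 2 members varied together within an age was described, after the values had been seen, by the SD of their log2 ratio within an age, pooled over both ages. For Timp1 and Mmp2 it was 0.0929, where the median over the 9495 genes set against Timp1 was 0.481, and 1 gene was closer to Timp1 than Mmp2 was. How rare this closeness was depended on OH2, in which both genes were low. Without OH2 the SD was 0.0833, so the 2 genes stayed as close. The median over all genes was then 0.194, and 726 of the 9495 genes were closer. Ccn2 was at 0.225 from Timp1 and 0.221 from Mmp2. Lox was at 0.321 to 0.338 from Ccn2, Mmp2 and Timp1, and Tgfb1 was at 0.340 to 0.424 from the other members. The median over all genes was 0.526 for Lox but 0.202 for Tgfb1. Of all genes, 84.1% to 92.5% were closer to Tgfb1 than the other members were, against 2.05% to 14.4% for Lox. The ages differed in which gene varied least like the others. Among the young libraries it was Lox, at 0.429 to 0.468 from Ccn2, Timp1 and Mmp2, while Tgfb1 was at 0.146 from Timp1 and 0.147 from Mmp2. Among the old libraries it was Tgfb1, at 0.458 to 0.536 from the other members, while Lox was at 0.0958 to 0.147 from Mmp2, Ccn2 and Timp1. The log2 ratio of Timp1 to Tgfb1 was 0.09 in OH1, 0.03 in OH5 and -0.87 in OH2. That of Mmp2 to Tgfb1 was 0.22, 0.07 and -0.64, so these old values rested largely on OH2. Ccn2 over Tgfb1 also differed between OH1 and OH5, at 0.64 and 0.04. Lox was low at both ages, at 1.30 to 2.02 TPM in young and 0.794 to 1.66 TPM in old, near the 1 TPM of the filter. These values describe 6 libraries and carry no test.

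Likeness over both ages was measured as the root mean square difference between 2 genes' rescaled log2 values over the 6 libraries, each centred on its own mean. By this measure Mmp2 and Ccn2 were the closest members, at 0.181, with 4 of 9486 genes closer to Ccn2 and 20 closer to Mmp2. Both genes had their lowest rescaled value in OH2, and these counts were not computed without OH2. The gene closest to Timp1 was ENSRNOG00000018991, at 0.125. As this gene was picked for its likeness to Timp1 in the same libraries, its log2 fold change of 1.41 is no separate evidence. No reference used here gives its symbol. The member closest to Timp1 was Mmp2, at 0.478, and 268 genes were closer. For Tgfb1, whose profile was nearly flat, 8209 genes were closer than the nearest member, Lox.

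The column names end in _1 (YH2, YH5 and OH1) or _2 (YH4, OH2 and OH5), with no meaning given in the labels. Within each suffix Timp1 was higher in old after rescaling, by 1.67 log2 units in the first and 1.26 in the second. With the suffix as a second term its log2 fold change was 1.47, and the limma adjusted p was 0.0606. Ccn2, Lox and Mmp2 were also higher in old within both suffixes after rescaling, by 0.84 and 0.26, 0.45 and 0.52, and 0.76 and 0.24. Tgfb1 was at -0.19 and 0.01. On the deposited scale Tgfb1 was lower by -0.62 and -0.83, and Timp1 higher by 0.98 and 0.29. Ccn2 was at 0.31 and -0.60 and Mmp2 at 0.24 and -0.60, opposite in sign between the suffixes, and Lox at -0.02 and -0.20. Each suffix holds 1 library of one of the ages, so these values have no test. With the suffix as a second term the deposited Tgfb1 value was -0.73, with a limma adjusted p of 0.0940.

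Other genes of the pathway, and marker genes of fibroblasts, endothelial cells, leukocytes and cardiomyocytes, had been listed by symbol (112 symbols in 18 lists). None could be looked up, since the gene name table at hand contains 0 of the 23976 identifiers. The labelled tissue was therefore not checked against its markers, and which cell types carried the differences was not tested.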

How the data were processed

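The authors deposited TPM for 23976 Ensembl genes in 6 libraries, made with Salmon and the genome build mRatBN7.2 per the submitters' processing notes. Its version was not given in the sources used here, nor was the annotation release. RNA was depleted of ribosomal RNA, per the labels' protocols. TPM keeps no read depth, so no counting interval could be given. Young columns were matched to samples by individual number (2, 4 and 5). The numbers of OH1 and OH2 fit no old label, so the 3 old columns were used as a group only. Symbols of the members come from the list that chose them. The reference, of Rattus rattus, holds none of the identifiers, so no symbol was contradicted or checked.

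Across all genes that reached 1 TPM in 3 or more libraries (9502 as deposited, 9487 rescaled), limma-trend (limma 3.58.1, R 4.3.3) was fitted to log2(TPM + 1) with age as the term and Benjamini-Hochberg adjustment. On the deposited scale the prior degrees of freedom were 91.8, so the errors there rest mostly on a spread shared across genes, against 4.22 after rescaling. The fit was tested on simulated data. Alternatives were other pseudocounts, filters, scalings, no trend, the column suffix as a term, and each library left out. Named were the 5 members and the gene most like Timp1. The members and lists were chosen with earlier results of these data known.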

Additional observations from a re-analysis of the deposited data

How the results depend on the processing

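No paired analysis was possible because no old column could be tied to one replicate. On the deposited scale 4533 genes were called, against 1 without a filter, 3 among all genes above 0 in some library, 1385 with the column suffix as a term, and 388 to 8857 with a library left out. After rescaling 576 were called, against 6, 334 and 174 under the same settings, and 67 to 453 with a library left out. The deposited Tgfb1 value missed the threshold at -0.71 under both wider filters and at -0.73 with the suffix, and ran from -0.90 to -0.58 with a library left out. The rescaled Timp1 value missed it at 1.36 under both wider filters and at 1.47 with the suffix, and ran from 1.17 to 1.72. With a library left out, Mmp2 ran from -0.45 to 0.016 as deposited, turning sign without OH2, and from 0.25 to 0.73 rescaled. Rescaling moved the log2 ratio of the group means to -0.13 for Tgfb1 (from -0.82), 0.44 for Ccn2 (from -0.29), 0.30 for Lox (from -0.36), 0.49 for Mmp2 (from -0.24) and 1.46 for Timp1 (from 0.73). Pairs of members without overlap numbered 4 to 7 with a library left out, where fewer libraries make non-overlap easier to reach. Pairs that turned sign were Ccn2 over Lox (-0.040 with a pseudocount of 1 TPM, -0.13 to 0.28 with a library left out), Mmp2 over Ccn2 (-0.077 to 0.15) and Mmp2 over Lox (-0.054 to 0.41). The cause of these changes was not tested. In the fits without a filter, 5835 genes listed at 0 in all 6 libraries have no spread. TPM gives no depth, and limits set by depth are therefore unknown.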
